A study of Mus musculus with 31 samples.

Results

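The genes described here are 10 genes of the primed pluripotent state and of the first lineages that leave it, namely Fgf5, Otx2, Pou3f1, Lefty1, Lefty2, Nodal, T, Gata6, Gata4, and Sox17. They were chosen by name, and 9 of the 10 had a row among the 15034 genes of the deposited RNA-seq table. Fgf5 had no row, and since the table holds no value of 0, no level is given for it. The cells were ES-E14TG2a mouse embryonic stem cells (mESCs), a feeder-independent line grown here on gelatin and profiled in 2i+lif, which is lif with the GSK3 inhibitor CHIR99021 and the MEK inhibitor PD0325901. All genotypes came from CRISPR/Cas9 editing and single-cell sorting. The WT mESCs (2 libraries) carried a FLAG tag on both alleles of Trim71, an RNA-binding protein, as the study uses the tagged line as its WT. The CLIPΔ mESCs (2 libraries, with 2 clones described by the study) lacked the Trim71-binding region of the Ago2 3′UTR, the Ago2 KO mESCs (4 libraries) had a deletion in the Ago2 coding region, and the Ago2 KO/CLIPΔ mESCs (4 libraries) carried both. Ago2 is an Argonaute protein that loads miRNAs. The labels call the libraries biological replicates but do not say which clone or culture each came from, so p-values measure only the spread between these libraries.

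mESCs in 2i+lif are held in the naïve state, and when the inhibitors and lif are withdrawn they pass through a formative state to the primed state of the postimplantation epiblast. Fgf5, a secreted growth factor, and the transcription factors Otx2 and Pou3f1 (also named Oct6) rise along this path and are used as its markers. Nodal is a TGFβ-family ligand that signals through activin receptors and Smad2/3, and its targets include its own secreted inhibitors Lefty1 and Lefty2, which close a feedback loop. T (brachyury) is the T-box factor of the primitive streak and mesoderm and a target of Wnt/β-catenin signaling, the branch that a GSK3 inhibitor turns on. Gata6, Gata4, and Sox17 specify primitive endoderm, a fate that FGF/ERK signaling drives in the blastocyst, and Sox17 also marks definitive endoderm.

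Values are TPM, read counts scaled for transcript length and for the library's total, so levels can be compared between genes. Differences are differences of mean log2(TPM + 1) with their SE, tested with limma over all genes, and a difference passed when its Benjamini–Hochberg adjusted p was under 0.05. The TPM of each library summed to between 998656 and 999501 over the table, and its read depth is unknown. Ago2 itself measured 28.2 and 21.6 TPM in WT and 27.3 and 20.3 TPM in CLIPΔ libraries. It measured between 1.51 and 2.87 TPM in the 8 libraries of the Ago2-null genotypes, whose labels name an Ago2 deletion. Libraries numbered 1 and 2 stood apart from those numbered 3 and 4 in both Ago2-null genotypes. In Ago2 KO/CLIPΔ, the Pearson correlation across genes was 0.998 within the first pair, 0.999 within the second, and 0.990 to 0.991 between the pairs. The WT and CLIPΔ libraries numbered 1 also differed from those numbered 2. Fos, Egr1, and Jun, immediate early genes that growth-factor signaling induces, were 16.5, 36.3, and 4.64 times as high in WT library 1 as in WT library 2, and 16.7, 28.1, and 4.10 times as high in CLIPΔ library 1 as in CLIPΔ library 2. The labels do not say what the numbers stand for. Results that rest on these libraries are therefore also given by number.

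The promoter table of RefSeq (GRCm38.p6) matched 4 of the 10 genes by symbol, Fgf5, Otx2, Nodal, and T, in windows from 250 bases before to 50 bases after the transcription start. The windows of T and Nodal are shown because T had the largest difference of any of the 10 genes that passed a test and Nodal had the narrowest range of levels. Capitals mark the letters CTTTGA on either strand (TCAAAG on the strand shown), 1 form of the core of the TCF/LEF motif through which β-catenin acts. Both windows are on the plus strand and read 5′ to 3′, T at chr17:8434173-8434472 and Nodal at chr10:61417722-61418021.
T: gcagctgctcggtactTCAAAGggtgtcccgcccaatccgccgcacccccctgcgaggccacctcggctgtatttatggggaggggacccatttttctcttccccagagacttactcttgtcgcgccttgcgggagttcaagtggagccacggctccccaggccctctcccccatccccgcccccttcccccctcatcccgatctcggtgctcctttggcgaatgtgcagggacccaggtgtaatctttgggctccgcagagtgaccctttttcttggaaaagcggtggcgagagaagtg
Nodal: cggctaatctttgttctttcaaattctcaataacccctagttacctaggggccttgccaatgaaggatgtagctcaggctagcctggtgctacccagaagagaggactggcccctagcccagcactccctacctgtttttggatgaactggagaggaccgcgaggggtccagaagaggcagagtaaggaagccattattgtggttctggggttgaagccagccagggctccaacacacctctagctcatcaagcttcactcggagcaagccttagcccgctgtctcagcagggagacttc
The T window held 1 match to these letters, which began at base 17, and the windows of Nodal, Otx2, and Fgf5 held none. Other forms of the core were not searched, so a window without a match may still hold one. The same letters were found in 16.0% of the 32851 windows of the promoter table, so a match by itself sets no gene apart.

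**Figure D1:**
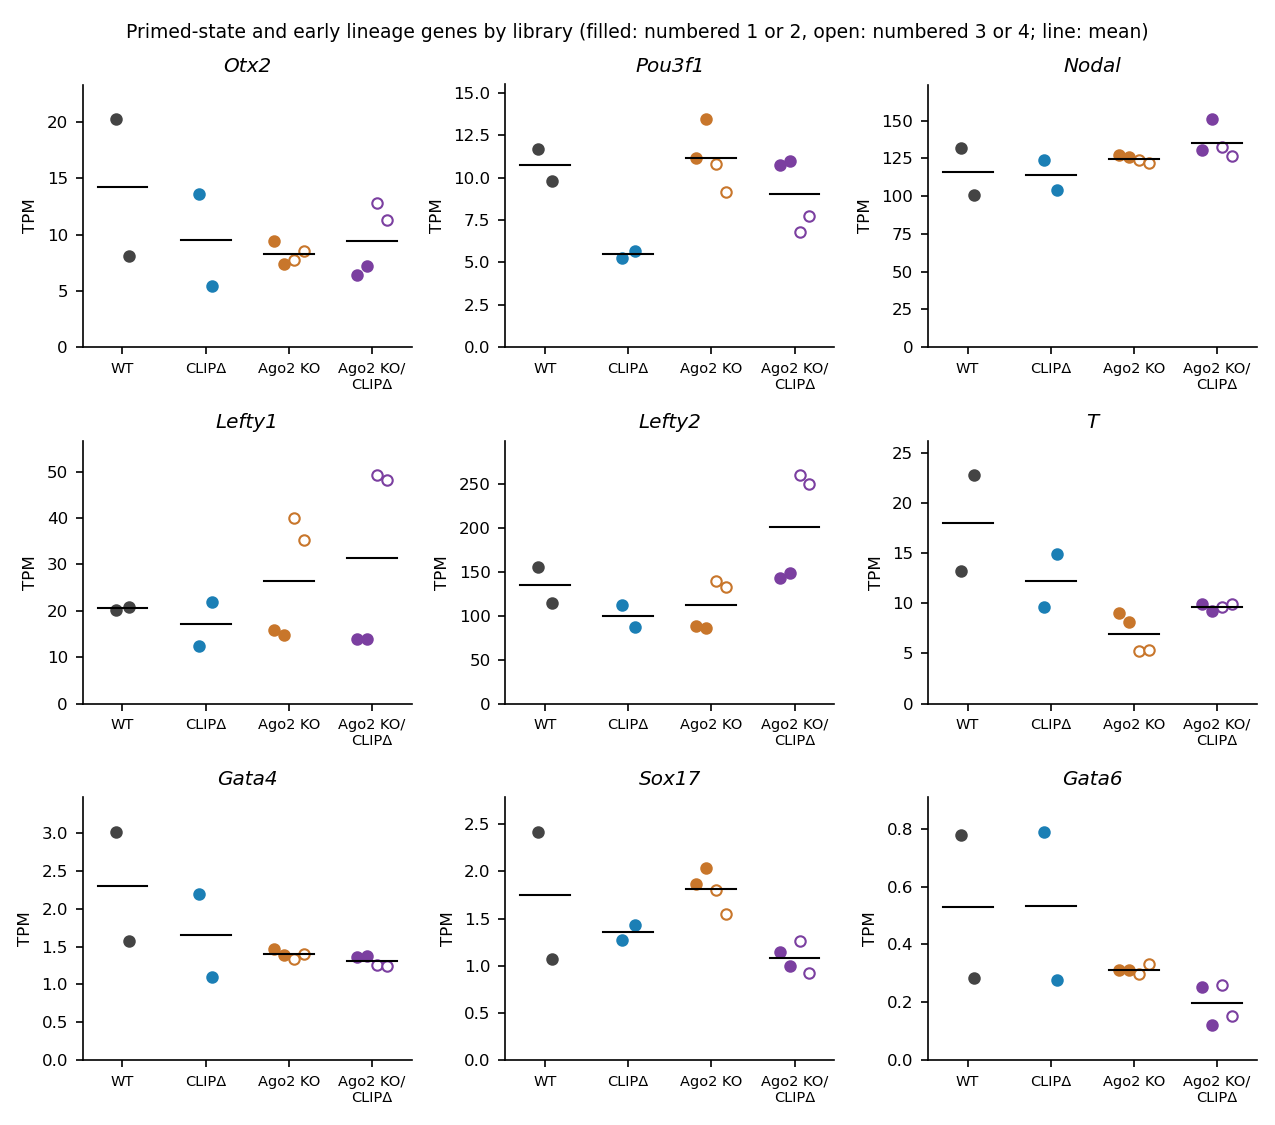
TPM of each gene in every library by genotype, on linear axes from 0, with filled points for libraries numbered 1 or 2, open points for those numbered 3 or 4, and a line at the group mean. Pou3f1 is lower in both CLIPΔ libraries than in all other libraries, Lefty1 and Lefty2 are higher in the libraries numbered 3 and 4 of both Ago2-null genotypes than in those numbered 1 and 2, and the mean of T is highest in WT.

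The 9 measured genes covered a wide range of levels in these naïve cells. Lefty2 (mean over the 12 libraries 143 TPM) and Nodal (125 TPM) lay above 92.1% and 91.1% of the genes in the table. Lefty1 averaged 25.5 TPM, T 10.6 TPM, Otx2 9.86 TPM, and Pou3f1 9.44 TPM. The endoderm genes were lowest, with means of 1.56 TPM for Gata4, 1.48 TPM for Sox17, and 0.347 TPM for Gata6. Gata6 fell below the minimum mean of 1 TPM used for testing, so 8 genes were tested. The ligand Nodal and its inhibitors were thus well expressed, while the endoderm factors were low. In bulk RNA, fewer cells of a kind and less RNA per cell cannot be told apart, which touches every level given here.

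Pou3f1 (chr4:124656807-124660655, plus strand, GRCm38), a POU-domain factor of the primed state, was lower in CLIPΔ than in every other library. It measured 11.7 and 9.81 TPM in WT and 5.28 and 5.68 TPM in CLIPΔ libraries. It measured 11.2, 13.5, 10.8, and 9.14 TPM in Ago2 KO and 10.7, 11.0, 6.79, and 7.72 TPM in Ago2 KO/CLIPΔ libraries. The order of the means was Ago2 KO, WT, Ago2 KO/CLIPΔ, and CLIPΔ, and only the last step had ranges that did not overlap. The mean of CLIPΔ was 0.51 times that of WT, a log2 difference of -0.85 ± 0.22 (SE; n = 2 and 2) that did not pass the threshold (adjusted p = 0.0754, unadjusted p = 0.00218). The ratio was 0.45 between the libraries numbered 1 and 0.58 between those numbered 2. With the replicate number as a block the difference passed over all 12 libraries (limma, adjusted p = 0.0241, where 3.12% of genes passed). In the 4 libraries alone, a fit chosen after seeing the data, it also passed (adjusted p = 0.045, where 2.86% did). WT and CLIPΔ share only 2 numbers, whose meaning the labels do not give. Pou3f1 was higher in Ago2 KO/CLIPΔ than in CLIPΔ by 0.61 ± 0.19 on the log2 scale (n = 4 and 2, adjusted p = 0.0172). Without CLIPΔ library 1 this difference was 0.57 and did not pass (adjusted p = 0.104). In both Ago2-null genotypes the libraries numbered 3 and 4 had less Pou3f1 than those numbered 1 and 2, at 0.81 times in Ago2 KO and 0.67 times in Ago2 KO/CLIPΔ. An antisense gene, Gm2164, shares 330 of the 3849 exon bases of Pou3f1, and since the sources used here do not say whether counting used strand, reads there could belong to either.

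Otx2 (chr14:48657677-48673819, minus strand), a homeodomain factor that drives the exit from the naïve state, varied widely within genotypes. It measured 20.3 and 8.14 TPM in WT and 13.6 and 5.46 TPM in CLIPΔ libraries. It measured 9.42, 7.35, 7.75, and 8.55 TPM in Ago2 KO and 6.43, 7.22, 12.8, and 11.3 TPM in Ago2 KO/CLIPΔ libraries. All neighbouring genotypes overlapped, and Otx2 passed the threshold in no comparison, with adjusted p between 0.189 and 0.934. By number, CLIPΔ held 0.67 times the Otx2 of WT, both between the libraries numbered 1 and between those numbered 2. WT library 1 held 2.5 times the Otx2 of WT library 2, and CLIPΔ library 1 held 2.49 times that of CLIPΔ library 2. These are the libraries with high Fos, Egr1, and Jun, whose part in the Otx2 level was not tested. Without WT library 2, the Otx2 difference between Ago2 KO and WT was -1.21 and passed (adjusted p = 0.0253). In Ago2 KO/CLIPΔ, Otx2 was 1.77 times as high in libraries 3 and 4 as in 1 and 2, against 0.97 times in Ago2 KO. Over all its transcripts Otx2 has 4221 exon bases. The long noncoding RNA gene Otx2os1, on the other strand, shares 154 of them, and the gene Gm49154, on the same strand, shares 168. Only the longest transcript was counted, and the shared bases may lie outside it.

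Nodal (chr10:61417972-61425338, plus strand), the ligand, was the steadiest of the 9 genes, with a highest value only 1.51 times the lowest. It measured 132 and 100.5 TPM in WT, 124 and 104 TPM in CLIPΔ, 127, 126, 124, and 122 TPM in Ago2 KO, and 131, 151, 132, and 127 TPM in Ago2 KO/CLIPΔ libraries. All 4 Ago2 KO/CLIPΔ libraries were above both CLIPΔ libraries, and no other pair of genotypes was apart. Its log2 differences were -0.02 ± 0.13 for CLIPΔ against WT, 0.12 ± 0.12 for Ago2 KO against WT, 0.11 ± 0.10 for Ago2 KO/CLIPΔ against Ago2 KO, and 0.25 ± 0.12 for Ago2 KO/CLIPΔ against CLIPΔ (± SE), and none passed (adjusted p from 0.089 to 0.973). The comparisons with and without Ago2 depended on the scaling of the libraries. The median of all genes was -0.26 for Ago2 KO against WT and -0.25 for Ago2 KO/CLIPΔ against CLIPΔ, and median-ratio scaling moved both medians by 0.32. Nodal then differed by 0.48 (adjusted p = 0.00808) and 0.62 (adjusted p = 0.00224), so in both comparisons it stood higher relative to the middle gene than its TPM shows.

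Lefty2 (chr1:180893108-180899103) and Lefty1 (chr1:180935022-180938400), the inhibitors, lie 35918 bases apart on the plus strand. Lefty2 was highest in Ago2 KO/CLIPΔ mESCs. It measured 156 and 115 TPM in WT and 112 and 87.0 TPM in CLIPΔ libraries. It measured 88.4, 85.6, 140.0, and 133 TPM in Ago2 KO and 143, 149, 260.0, and 250.4 TPM in Ago2 KO/CLIPΔ libraries. Both CLIPΔ libraries were below both WT libraries, and all 4 Ago2 KO/CLIPΔ libraries were above all 4 Ago2 KO and both CLIPΔ libraries. The order of the means was Ago2 KO/CLIPΔ, WT, Ago2 KO, and CLIPΔ, and each neighbouring pair in this order overlapped. Against CLIPΔ, Lefty2 rose 2.01-fold in Ago2 KO/CLIPΔ, by 0.96 ± 0.29 on the log2 scale (n = 4 and 2, adjusted p = 0.0148), and the difference without CLIPΔ library 2 was 0.78 and did not pass (adjusted p = 0.102). Against Ago2 KO it was 1.79 times as high, a log2 difference of 0.82 ± 0.24 (n = 4 and 4) that did not pass (adjusted p = 0.167). The CLIPΔ value was 0.74 times that of WT, a difference of -0.43 ± 0.33 that did not pass (adjusted p = 0.671). The ratio was 0.72 between the libraries numbered 1 and 0.76 between those numbered 2.

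The spread of Lefty2 in the Ago2-null genotypes followed the library numbers. Libraries 3 and 4 held 1.57 times the Lefty2 of libraries 1 and 2 in Ago2 KO and 1.75 times in Ago2 KO/CLIPΔ. Within libraries 1 and 2, Ago2 KO/CLIPΔ was 1.68 times Ago2 KO, and within libraries 3 and 4 it was 1.87 times, so Ago2 KO/CLIPΔ was above Ago2 KO in each pair of numbers. The same-numbered libraries of Ago2 KO and Ago2 KO/CLIPΔ deviated together across genes, and with the replicate number as a block the Lefty2 difference was 0.82 ± 0.09 and passed (adjusted p = 0.00457 with all 12 libraries, where 1.59% of all genes passed, and 0.00079 with the 8 Ago2-null libraries alone, where 7.34% passed). Against WT, the Ago2 KO value was 0.83 times as high (-0.29 ± 0.29, adjusted p = 0.403) with all libraries, but with only the libraries numbered 1 and 2 the difference was -0.61 ± 0.18 and passed (adjusted p = 0.0318), where 43.0% of all genes passed.

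Lefty1 split by library number more than any other of the 9 genes. It measured 15.8 and 14.8 TPM in Ago2 KO libraries 1 and 2 and 40.0 and 35.2 TPM in libraries 3 and 4. Ago2 KO/CLIPΔ libraries held 14.0 and 13.9 TPM with the numbers 1 and 2 and 49.2 and 48.1 TPM with the numbers 3 and 4. WT libraries held 20.3 and 20.8 TPM and CLIPΔ libraries 12.4 and 21.8 TPM. The later-numbered pair thus held 2.45 times the Lefty1 of the first pair in Ago2 KO and 3.49 times in Ago2 KO/CLIPΔ, where the median ratio over all genes tested was 0.95 and 1.11. Genes that were at least 1.5 times as high in libraries 3 and 4, without overlap, made up 1.60% of all genes tested in Ago2 KO, where Lefty1 and Lefty2 were 2 of the 8, and 11.7% in Ago2 KO/CLIPΔ, where Lefty1, Lefty2, and Otx2 were 3 of the 8. At 2-fold the shares were 0.478% and 1.83%, and of the 8 only Lefty1 met it, in both genotypes. All genotypes overlapped for Lefty1, and its differences between genotypes, from -0.30 ± 0.65 to 0.64 ± 0.56, passed in none (adjusted p from 0.350 to 0.960). These SEs use the spread within all 4 genotypes. In a fit of WT and CLIPΔ alone, the Lefty1 difference was -0.30 ± 0.29 and did not pass. Of the 50-base stretches in its transcripts, 17.9% also occur in Lefty2, and 12% of those of Lefty2 occur in Lefty1 or in Gm44212, so some reads could have been given to the wrong gene or to none.

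**Figure D2:**
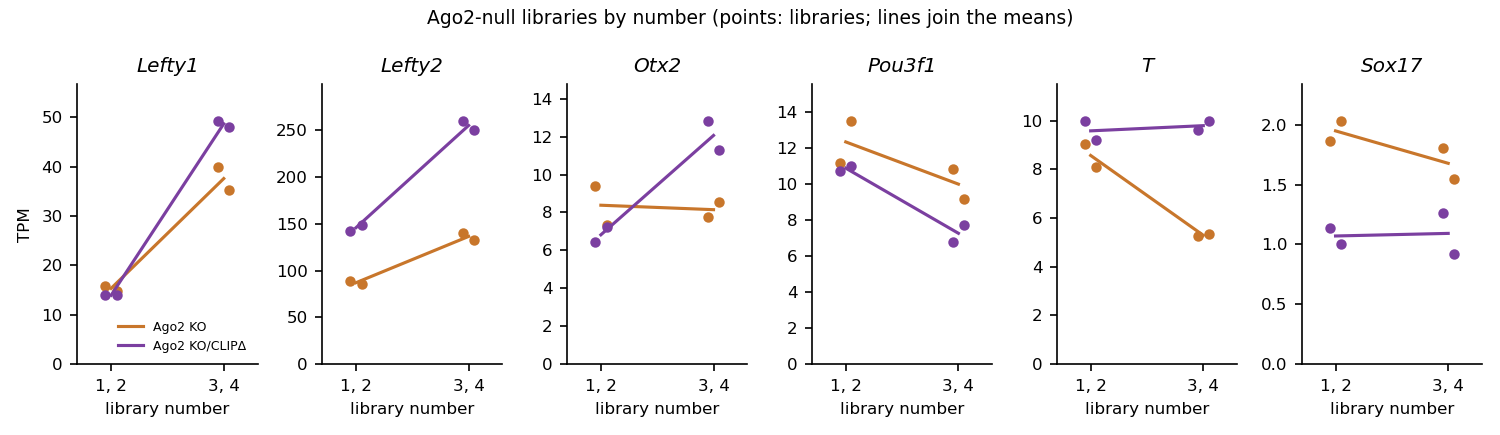
TPM in the 8 Ago2-null libraries by library number, with Ago2 KO in orange and Ago2 KO/CLIPΔ in purple, points for libraries and lines joining the means of each pair of numbers. Lefty1 and Lefty2 are higher in libraries 3 and 4 in both genotypes, Otx2 is so only in Ago2 KO/CLIPΔ, and within both pairs of numbers Lefty2 and T are higher and Pou3f1 and Sox17 lower in each Ago2 KO/CLIPΔ library than in each Ago2 KO library.

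T (chr17:8434423-8442496, plus strand) was lower in Ago2 KO than in WT mESCs. It measured 13.2 and 22.8 TPM in WT and 9.59 and 14.9 TPM in CLIPΔ libraries. It measured 9.04, 8.09, 5.25, and 5.32 TPM in Ago2 KO and 9.97, 9.18, 9.60, and 9.98 TPM in Ago2 KO/CLIPΔ libraries. All Ago2 KO libraries lay below both WT libraries and below all Ago2 KO/CLIPΔ libraries, while CLIPΔ overlapped WT and Ago2 KO/CLIPΔ. CLIPΔ held 0.73 times the T of WT between the libraries numbered 1 and 0.66 times between those numbered 2. The difference between CLIPΔ and WT did not pass (-0.50 ± 0.28, adjusted p = 0.523). In Ago2 KO the mean was 0.39 times that of WT, a difference of -1.24 ± 0.245 (n = 4 and 2) that passed (adjusted p = 0.00138). The difference was -0.91 under median-ratio scaling (adjusted p = 0.0106) and ran from -1.62 to -0.87 when each library was left out in turn, and it passed each time. T was 1.40 times as high in Ago2 KO/CLIPΔ as in Ago2 KO, a log2 difference of 0.46 ± 0.20 that did not pass (adjusted p = 0.421). That ratio was 1.12 in libraries 1 and 2 and 1.85 in libraries 3 and 4. Relative to CLIPΔ, Ago2 KO/CLIPΔ held 0.79 times the T (adjusted p = 0.344), and the interaction of the 2 deletions was 0.96 ± 0.35 (adjusted p = 0.430).

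The endoderm factors were low in every genotype. Sox17 (chr1:4490931-4497354, minus strand) measured 2.42 and 1.07 TPM in WT, 1.28 and 1.43 TPM in CLIPΔ, 1.87, 2.03, 1.81, and 1.55 TPM in Ago2 KO, and 1.14, 1.00, 1.26, and 0.924 TPM in Ago2 KO/CLIPΔ libraries. All 4 Ago2 KO/CLIPΔ libraries were below all Ago2 KO and both CLIPΔ libraries, and their mean was 0.60 times that of Ago2 KO. This difference was -0.43 ± 0.14 (n = 4 and 4, adjusted p = 0.216), and with the replicate number as a block it did not pass over all 12 libraries (-0.43 ± 0.14, adjusted p = 0.170) and passed only in the 8 Ago2-null libraries alone (-0.43 ± 0.09, adjusted p = 0.0285, where 7.34% of all genes passed), a fit chosen after seeing the data. The ratio was 0.55 in libraries 1 and 2 and 0.65 in libraries 3 and 4. The processed transcript Gm37587, on the other strand, shares 804 of the 4772 exon bases of all Sox17 transcripts, of which only the longest was counted.

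Gata4 (chr14:63198922-63271692, minus strand) measured 3.02 and 1.58 TPM in WT and 2.20 and 1.10 TPM in CLIPΔ libraries. CLIPΔ held 0.73 times the Gata4 of WT between the libraries numbered 1 and 0.69 times between those numbered 2. The difference between CLIPΔ and WT did not pass (-0.31 ± 0.21, adjusted p = 0.606). The 4 Ago2 KO libraries lay between 1.34 and 1.47 TPM and the 4 Ago2 KO/CLIPΔ libraries between 1.24 and 1.38 TPM. Ago2 KO was below both WT libraries, by -0.42 ± 0.18 on the log2 scale, and did not pass (adjusted p = 0.0639). Gata6 (chr18:11052064-11085635, plus strand) measured 0.779 and 0.282 TPM in WT, 0.790 and 0.278 TPM in CLIPΔ, 0.296 to 0.332 TPM in Ago2 KO, and 0.119 to 0.259 TPM in Ago2 KO/CLIPΔ libraries. In both genotypes with Ago2, library 1 held more of these factors than library 2, by 1.91 and 2.01 times for Gata4 and by 2.76 and 2.84 times for Gata6. These are again the libraries with high Fos, Egr1, and Jun, and their part in these levels was not tested. Tested without the minimum level, Gata6 passed in no comparison (adjusted p from 0.0604 to 0.998).

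**Figure D3:**
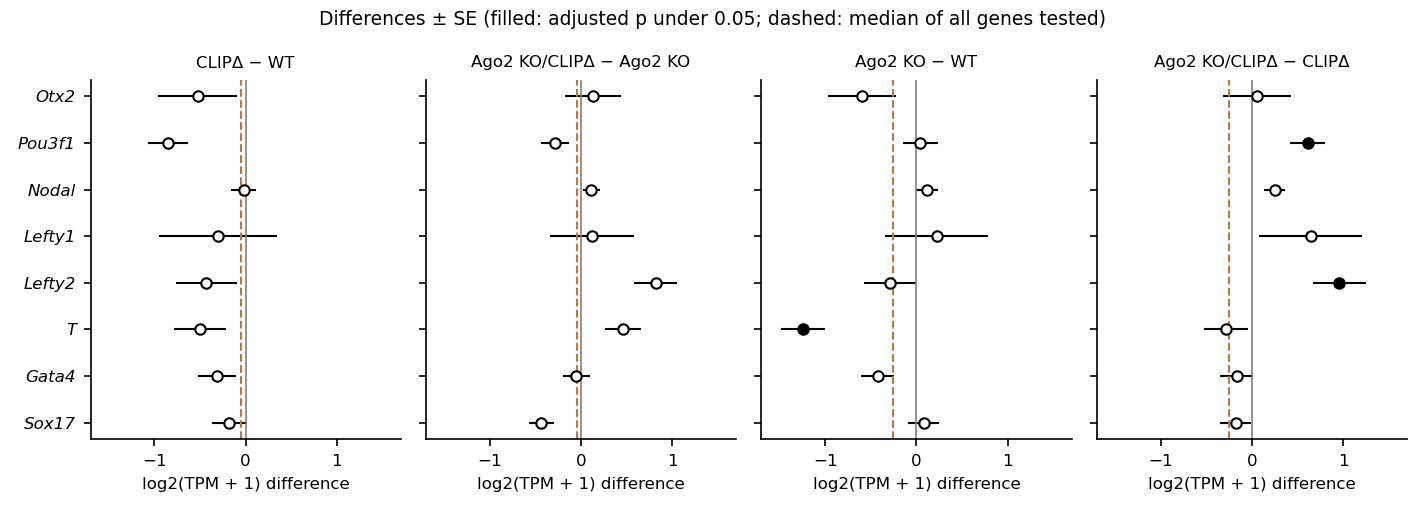
Difference of the mean log2(TPM + 1) for the 8 tested genes in each of the 4 comparisons, with bars of ± SE, filled points for adjusted p under 0.05, and a dashed line at the median of all genes tested. The points that passed are T in Ago2 KO against WT (-1.24) and Pou3f1 (0.61) and Lefty2 (0.96) in Ago2 KO/CLIPΔ against CLIPΔ.

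The comparisons differ in how much of the whole transcriptome moved, and the 8 genes are read against that. For the loss of the Trim71-binding region, none of the 8 passed in CLIPΔ against WT, where 2.27% of the 11287 genes tested did, and none in Ago2 KO/CLIPΔ against Ago2 KO, where 0.877% did. Their median difference was -0.37 in the first comparison, against -0.05 over all genes, and 0.12 in the second, against -0.04 over all genes. Groups did not overlap for 2 of the 8 genes in the first (Pou3f1 and Lefty2, both lower), where 30.9% of all genes did not (11.3% higher and 19.5% lower). In the second they did not overlap for 3 of the 8 (Lefty2 and T higher, Sox17 lower), where 13.4% of all genes did not (3.83% higher and 9.54% lower). Between libraries of the same number in the first, CLIPΔ was below WT in both numbers for Otx2, Pou3f1, Lefty2, T, and Gata4. For Nodal, Lefty1, and Sox17 the 2 numbers went opposite ways, and how many of all genes did either was not counted. The replicate number as a block called Pou3f1 alone of the 8 in the first, where 3.12% of genes passed over 12 libraries and 2.86% over the 4. In the second, the block over all 12 libraries called Lefty2 alone of the 8, where 1.59% of genes passed. In the 8 Ago2-null libraries it called Lefty2 and Sox17, where 7.34% did. For the loss of Ago2, 1 of the 8 was lower in Ago2 KO than in WT, where 56.4% of all genes passed, 42.4% lower and 14.0% higher. Between Ago2 KO/CLIPΔ and CLIPΔ, 2 of the 8 were higher and none lower, where 54.9% of all genes passed, 12.8% higher and 42.1% lower. Groups did not overlap for 2 of the 8 in the former (T and Gata4, both lower), where 68.5% of all genes did not (18.3% higher and 50.2% lower), and for 4 of the 8 in the latter (Pou3f1, Lefty2, and Nodal higher, Sox17 lower), where 65.0% did not (16.7% higher and 48.3% lower). Median-ratio scaling changed the whole-table splits to 29.8% higher and 23.4% lower in the first of these and to 29.7% and 21.9% in the second, and it left T lower and Pou3f1 and Lefty2 higher and added Nodal as higher in both. Counting both directions, the 1 and 2 of 8 that passed are a smaller share than that of all genes. In Ago2 KO/CLIPΔ against CLIPΔ, 2 of 8 were higher beside 12.8% of all genes, and 3 of 8 beside 29.7% after scaling. With 8 genes no excess is read from these counts. Pou3f1 and Lefty2 also each lost the call without 1 of the CLIPΔ libraries. The Ago2 deletion and any difference in culture or preparation between these libraries cannot be told apart. The 4 comparisons share their libraries and are not independent. The interaction, which asks whether the binding-site deletion acts differently with and without Ago2, passed for none of the 8, where 0.647% of genes passed, and its largest value among them was that of Lefty2 (1.25 ± 0.41, adjusted p = 0.346).

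Of the 27 other Nodal and activin pathway genes listed, 22 had a row and 21 were tested. In CLIPΔ against WT none passed, and in Ago2 KO/CLIPΔ against Ago2 KO only Furin, a convertase that cleaves the Nodal precursor, passed and was higher (0.53 ± 0.09, adjusted p = 0.0222). In Ago2 KO against WT, where 14.0% of all genes were higher and 42.4% lower, 2 were higher and 12 lower. Their median was -0.39 against -0.26 over all genes, and under median-ratio scaling 3 were higher and 5 lower. The 2 that rose were Inhbb, an activin subunit (2.01 ± 0.32, adjusted p = 0.000401), and Drap1, a corepressor that limits Nodal signaling (0.69 ± 0.11, adjusted p = 0.000499). The largest falls were in Skil, a Smad corepressor (-1.04 ± 0.23, adjusted p = 0.00241), and Acvr1b, a type I activin receptor (-0.92 ± 0.17, adjusted p = 0.00102). Between Ago2 KO/CLIPΔ and CLIPΔ, where 12.8% of all genes were higher and 42.1% lower, 3 were higher and 8 lower, or 4 and 2 after scaling. Inhbb (2.14 ± 0.32, adjusted p = 0.000349) and Drap1 (0.52 ± 0.11, adjusted p = 0.00265) were again highest. Skil (-0.92 ± 0.23, adjusted p = 0.00509) and the Smad4 ubiquitin ligase gene Trim33 (-0.85 ± 0.17, adjusted p = 0.00146) were lowest.

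Among 29 genes of the FGF and ERK pathway, 24 were tested. In CLIPΔ against WT, 1 passed, the ERK feedback inhibitor Spry4, which was lower (-1.18 ± 0.25, adjusted p = 0.0355, and 0.0532 after median-ratio scaling), and its level in Ago2 KO/CLIPΔ was above that in CLIPΔ (0.99 ± 0.22, adjusted p = 0.00292). None passed in Ago2 KO/CLIPΔ against Ago2 KO. In Ago2 KO against WT, where 14.0% of all genes were higher and 42.4% lower, 2 were higher and 16 lower, or 4 and 9 after scaling. Their median was -0.49. The largest falls were in Egr1 (-7.24 ± 1.27, adjusted p = 0.000727) and Fos (-5.16 ± 1.03, adjusted p = 0.00146), which were between 0.735 and 3.32 TPM in all Ago2-null libraries and, in the libraries with Ago2, ranged over more than 10-fold. Egr1 measured 2481 and 68.3 TPM in WT and 1613 and 57.3 TPM in CLIPΔ libraries, so these means rest mostly on the libraries numbered 1. Those that rose were Map2k2, which encodes a MEK kinase (0.78 ± 0.14, adjusted p = 0.000968), and Fgf15 (0.53 ± 0.19, adjusted p = 0.0344). Between Ago2 KO/CLIPΔ and CLIPΔ, where 12.8% of all genes were higher and 42.1% lower, 5 were higher and 13 lower, or 5 and 4 after scaling. The ERK1 gene Mapk3 was among those higher (0.82 ± 0.20, adjusted p = 0.00527).

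Of 23 Wnt and β-catenin pathway genes, 18 were tested, and none passed in the comparisons of the binding-site deletion. In Ago2 KO against WT, where 14.0% of all genes were higher and 42.4% lower, 1 was higher and 8 lower, or 3 and 7 after scaling. Their median was -0.35. Axin2, a feedback inhibitor and a direct β-catenin target (-1.39 ± 0.13, adjusted p = 3.28e-05), and Apc, part of the complex that degrades β-catenin (-1.42 ± 0.20, adjusted p = 0.000213), fell most, and the Wnt antagonist Dkk1 rose (0.71 ± 0.16, adjusted p = 0.00335). T, another β-catenin target, fell in the same comparison, while the target Cdx1 did not (mean 87.8 TPM in Ago2 KO and 68.8 TPM in WT). A link between the level of T and these genes was not tested. In Ago2 KO/CLIPΔ against CLIPΔ, where 12.8% of all genes were higher and 42.1% lower, 1 was higher and 11 lower, or 5 and 7 after scaling. The 1 that was higher was the target Cdx1 (0.83 ± 0.31, adjusted p = 0.0375). Among those lower were Apc (-1.21 ± 0.20, adjusted p = 0.000606), Sp5 (-1.20 ± 0.16, adjusted p = 0.000209), and the target Axin2 (-0.999 ± 0.13, adjusted p = 0.00017).

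Of 20 other genes of the formative and primed states, 19 had a row and 16 were tested. In Ago2 KO/CLIPΔ against Ago2 KO, 4 were lower and none higher, where 0.602% of all genes were lower, with a median of -0.36 against -0.04. Those that fell most were Sox3, a SoxB1 factor (-1.18 ± 0.19, adjusted p = 0.0151), and Sfrp2, a secreted Wnt modulator (-1.0 ± 0.15, adjusted p = 0.0117), and 2 of the 4 passed after scaling. In CLIPΔ against WT only Sox4 passed and was lower (-0.68 ± 0.15, adjusted p = 0.0404, and 0.0629 after scaling). In Ago2 KO against WT, where 14.0% of all genes were higher and 42.4% lower, 2 were higher and 5 lower, or 4 and 2 after scaling. The 2 that were higher were the chromatin factor Utf1 (1.19 ± 0.23, adjusted p = 0.00113) and Sfrp2 (1.10 ± 0.19, adjusted p = 0.000587). The 5 that were lower were led by the zinc-finger factors Zic2 (-2.30 ± 0.30, adjusted p = 0.000153) and Zic5 (-1.15 ± 0.12, adjusted p = 5.21e-05). The de novo methyltransferase gene Dnmt3b, a common marker of this state, ranged from 38.2 to 64.0 TPM over all libraries and passed in no comparison.

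**Figure D4:**
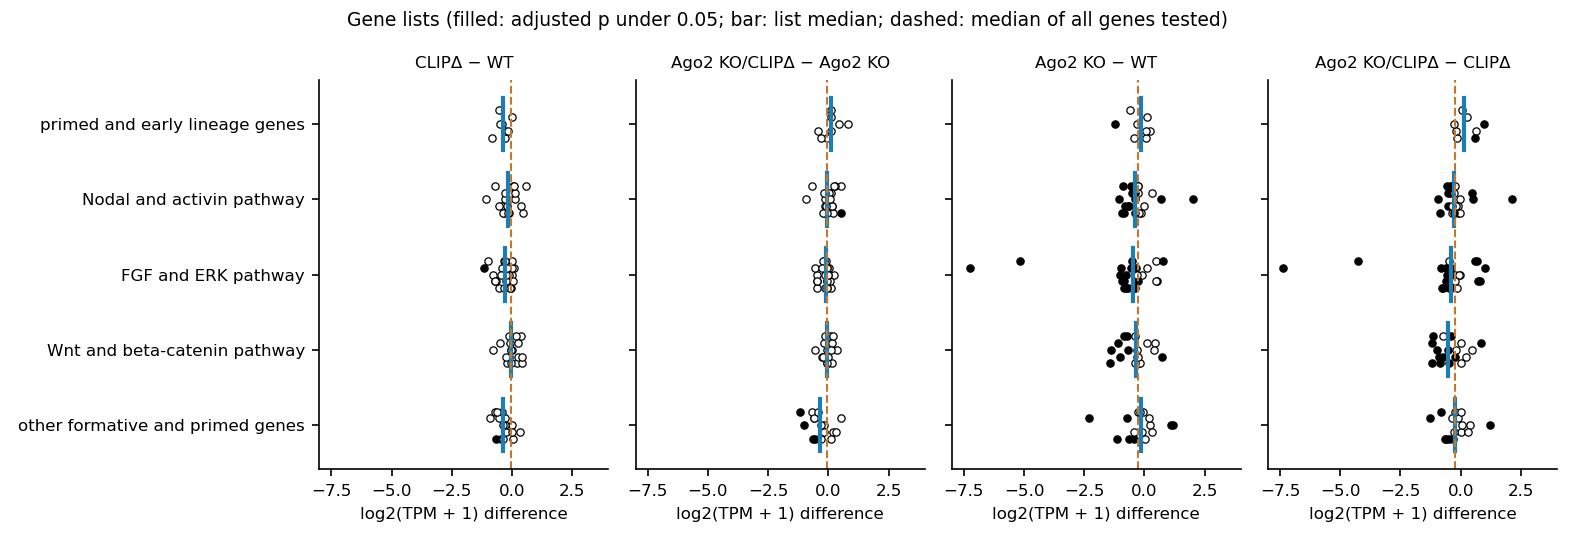
Difference of the mean log2(TPM + 1) of each tested gene (points, filled for adjusted p under 0.05) in 5 gene lists and 4 comparisons, with a blue bar at each list's median and a dashed line at the median of all genes tested. Few points pass in the 2 comparisons on the left, many lie below 0 in the 2 on the right, where the dashed line is at -0.26 and -0.25, and the points beyond -4 are Egr1 and Fos.

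Genes whose levels ran most like those of each of the 8 were found by the Pearson correlation of log2(TPM + 1) over the 12 libraries, which share genotype and number, so the values only describe. The nearest to Lefty2 was Ftl1, a ferritin subunit gene (r = 0.98, and 0.99 in the 8 Ago2-null libraries), and the nearest to Lefty1 was Nsmf (0.96 and 0.98). Pou3f1 ran most like Mesp2 (0.94) and Eras (0.93), which encodes an ES-cell Ras protein, and T most like Tfap4 (0.93). Gata4 ran most like Ptgs2 (0.97), Cd80 (0.96), and Jun (0.96), and over the Ago2-null libraries alone the value for Ptgs2 was 0.33, so its likeness over all libraries lies mostly in the libraries with Ago2. For Otx2 the nearest was As3mt (0.93), for Nodal Map3k3 (0.89), and for Sox17 Mep1b (0.86). Among the 8 themselves, the highest value was 0.78 between Otx2 and Gata4, and it was -0.57 within the Ago2-null libraries. Lefty1 and Lefty2 ran together over all libraries (0.68) and within the Ago2-null libraries (0.72), where Pou3f1 ran opposite to both (-0.80 with Lefty1 and -0.90 with Lefty2).

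In the Trim71 CLIP-seq of WT mESCs, which crosslinks the FLAG-tagged protein to RNA, the deposited list held 498 peaks common to both replicates. None was assigned to any of the 10 genes or to any of the 27 Nodal and activin pathway genes. With 498 peaks beside 15034 genes in the RNA-seq table, most genes have no peak, so an absence in lists this small sets them apart from no other genes. The FGF and ERK list had 5 peaks, in Fgf4, Fgfr2, Spred2, and Spry2, and the Wnt list had 3, in Apc, Gsk3b, and Tcf7l2. Peaks carry no value per replicate, and a gene without a listed peak may still be bound below the authors' threshold.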

How the data were processed

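RNA-seq was read for 12 libraries. For these, the authors aligned reads with HISAT2 2.1.0 (mm10), took HTSeq counts over one transcript per gene, the longest, and deposited TPM. Every value in the table is above 0. The CLIPΔ and Ago2 KO/CLIPΔ columns share an unexplained code, read as CLIPΔ because WT and Ago2 KO are named and the labels give only these 4 genotypes. The authors also deposited counts of reads per CLIP-seq peak, of which only the assigned gene was used. Small-RNA-seq was not used.

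Genes averaging 1 TPM or more (11287) were tested as log2(TPM + 1), a scale that understates changes of low genes, with limma 3.58.1 (trend) in R 4.3.3. All 12 libraries entered one fit with a mean per genotype, and p-values were Benjamini–Hochberg adjusted over all genes, with a threshold of 0.05. The study's count test could not be used on TPM. The script was tested on simulated data. The genes and lists were chosen with earlier results of these data known. All 10 genes are named, with up to 2 called genes per direction, list, and comparison and the nearest genes by correlation. Fos, Egr1, Jun, and Dppa3 by library, and Dnmt3b, Evx1, and the CLIP-seq genes, were added after their values were seen. So were Cdx1 in Ago2 KO against WT and Axin2 in Ago2 KO/CLIPΔ against CLIPΔ. Same-numbered Ago2 KO and Ago2 KO/CLIPΔ libraries deviated together from their group means (r from 0.32 to 0.433 over 4 numbers). Those of WT and CLIPΔ did so too (r = 0.715 over 2 numbers). The replicate block is therefore given beside results of these 2 comparisons whose call it changes, and for other comparisons in the closing section. Alternatives covered pseudocount, filter, scaling, groups in the fit, block, library number, and each library left out. Positions and exons come from GENCODE vM21 (GRCm38).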

Additional observations from a re-analysis of the deposited data

Results flagged for a closer look

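Lefty2 is listed here because the binding-site deletion went with differences of opposite sign in the presence and absence of Ago2. Neither difference of Lefty2 passed (limma, adjusted p = 0.671 and 0.167). Both CLIPΔ libraries (112 and 87.0 TPM) were below both WT libraries (156 and 115 TPM), as for 19.5% of all genes. All 4 Ago2 KO/CLIPΔ libraries (143 to 260.0 TPM) were above all 4 Ago2 KO libraries (85.6 to 140.0 TPM), as for 3.83% of all genes. The difference between the 2 effects was 1.25 ± 0.41 on the log2 scale and did not pass over all genes (limma interaction, adjusted p = 0.346, unadjusted p = 0.00995). It ran from 1.03 to 1.47 when each library was left out in turn, with adjusted p from 0.232 to 0.583. With the replicate number as a block it passed (adjusted p = 0.00808, where 0.735% of genes passed), but WT and Ago2 KO libraries of the same number did not deviate together (r = 0.06 and -0.154). The 2 differences also had opposite signs for T, Otx2, Lefty1, and Nodal. Their interactions were smaller, the largest that of T (0.96 ± 0.35, limma, adjusted p = 0.430). No library of the Ago2-null genotypes lay far from the other 3 of its group for any of the 9 genes, in 18 groups examined. Such a check cannot flag a split of libraries 1 and 2 from 3 and 4, which Lefty2 shows, so nothing is read from it.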

How the results depend on the processing

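The calls of T, Pou3f1, and Lefty2 held under the other pseudocounts (0.1 and 0.5), without the filter or with a minimum of 5 TPM, without the trend, in fits of only the 2 groups compared, after median-ratio scaling, with the replicate block, and in libraries numbered 1 and 2. Of 862 values of single genes under all alternatives, 787 kept their direction and call, 31 passed only under the alternative, 2 no longer passed, and 42 changed sign, none of which passed in the reported fit and 1 of which, Lefty1 in Ago2 KO against WT, passed after the change. Read depth is unknown, and comparisons with WT or CLIPΔ rest on 2 libraries of that group. For other settings the cause of a change was not tested.

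CLIPΔ against WT called 510 genes without the filter, 145 with a minimum of 5 TPM, 101 in libraries 1 and 2, and 0 in the fit of the 2 groups alone (limma, with 0 of the 8 genes). Ago2 KO/CLIPΔ against Ago2 KO called 353 genes in the 2 groups alone (3.22% of genes, with Sox17 as 1 of the 8), and 0 in libraries 1 and 2 of all genotypes. Other fits of this comparison were chosen after seeing the data. With the number pair as a term, 1824 genes were called (16.6%, and 3 of the 8, Lefty2, Sox17, and T). In libraries 3 and 4, 4238 were called (38.5%, and 6 of the 8, all but Nodal and Gata4). In libraries 1 and 2 of the Ago2-null genotypes, 4157 were called (38.2%, and 2 of the 8, Lefty2 and Sox17). The interaction called 168 genes without the filter, 39 with a minimum of 5 TPM, and 0 in libraries 1 and 2. In Ago2 KO against WT, 2 of the 8 passed after scaling (T and Nodal), where 53.2% of all genes did. In libraries 1 and 2, 2 passed (T and Lefty2), where 43.0% of all genes did.

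The replicate block over all 12 libraries called 180 genes in Ago2 KO/CLIPΔ against Ago2 KO (1.59% of genes, and 1 of the 8, Lefty2). The block in the 8 Ago2-null libraries called 804 (7.34% of genes, and 2 of the 8). Over the 12 libraries the block also added Lefty2 to the interaction (1 of the 8, adjusted p = 0.00808, where 0.735% of genes passed). For WT with Ago2 KO the libraries share only a number, and there the block called 61.1% of all genes. Of the 8 it called 3, T, Lefty2 (-0.65, adjusted p = 0.00183), and Lefty1 (-0.52, adjusted p = 0.0497), with Lefty1 changed in sign. WT and CLIPΔ share only a number too (2 pairs, r = 0.715), and the block called Pou3f1 as 1 of the 8. Its adjusted p was 0.0241 over 12 libraries, where 3.12% of genes passed, and 0.045 over the 4, where 2.86% did. In Ago2 KO/CLIPΔ against CLIPΔ the block turned Otx2 to -0.12 and Lefty1 to -0.10, with no change of call.

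After scaling, Nodal in CLIPΔ against WT turned to 0.0331, Lefty2 in Ago2 KO against WT to 0.0682, and Gata4, T, and Sox17 in Ago2 KO/CLIPΔ against CLIPΔ to 0.0565, 0.0564, and 0.0234. In libraries 1 and 2, Lefty1 turned to -0.40 in Ago2 KO against WT. In the same libraries, Otx2 and Lefty1 turned to -0.26 and -0.13 in Ago2 KO/CLIPΔ against Ago2 KO and to -0.31 and -0.22 in Ago2 KO/CLIPΔ against CLIPΔ.

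With each library left out in turn, CLIPΔ against WT called 101 to 390 genes (101 without CLIPΔ library 1, 390 without CLIPΔ library 2, 165 and 168 without Ago2 KO libraries 2 and 4). Ago2 KO against WT called 4150 (without WT library 1) to 6631, and Ago2 KO/CLIPΔ against CLIPΔ 3648 (without CLIPΔ library 1) to 6609. Ago2 KO/CLIPΔ against Ago2 KO called 21 to 161 genes, with 160 and 161 without WT library 1 or 2, 21, 22, 51, and 62 without Ago2 KO libraries 1 to 4, and 61, 29, and 35 without Ago2 KO/CLIPΔ libraries 1, 3, and 4. The interaction called 48 (without Ago2 KO library 2) to 137 (without CLIPΔ library 2). Of the 8 genes, 1 to 3, 0 to 1, and 1 to 3 were called in Ago2 KO against WT, Ago2 KO/CLIPΔ against Ago2 KO, and Ago2 KO/CLIPΔ against CLIPΔ. Leaving out WT library 1 called Sox17 in Ago2 KO against WT (adjusted p = 0.0324). Leaving out WT library 2 called Otx2 (0.0253) and Gata4 (0.00611) there, and leaving out CLIPΔ library 1 or 2 also called Gata4 (0.0292 and 0.0293). Leaving out WT library 1 or 2 called Sox17 in Ago2 KO/CLIPΔ against Ago2 KO (0.0437 and 0.0438) and Nodal in Ago2 KO/CLIPΔ against CLIPΔ (0.0403 and 0.0402).

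Signs changed in these ranges with a library left out. In CLIPΔ against WT, Otx2 ran from -1.14 to 0.0861, Gata4 from -0.63 to 0.0059, Nodal from -0.22 to 0.17, Sox17 from -0.54 to 0.18, and Lefty1 from -0.69 to 0.0828. In Ago2 KO against WT, Otx2 ran from -1.21 to 0.0144, Lefty1 from -0.0165 to 0.44, Nodal from -0.0785 to 0.31, Pou3f1 from -0.0731 to 0.16, and Sox17 from -0.28 to 0.44. Between Ago2 KO/CLIPΔ and Ago2 KO, Otx2 ran from -0.0227 to 0.28 and Lefty1 from -0.17 to 0.41. Between Ago2 KO/CLIPΔ and CLIPΔ, Otx2 ran from -0.53 to 0.64, Gata4 from -0.47 to 0.14, and T from -0.58 to 0.0116. In the interaction, Gata4 ran from -0.0598 to 0.58, Nodal from -0.0619 to 0.33, and Sox17 from -0.62 to 0.10.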

Other observations

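Genes of the naïve state and of other lineages moved in ways not described above. Dppa3 (Stella), a germline and naïve-state factor, measured 28.3 and 18.8 TPM in WT, 269 and 117 TPM in CLIPΔ, and between 1.28 and 3.39 TPM in the 8 Ago2-null libraries. It rose in CLIPΔ against WT (2.89 ± 0.37, adjusted p = 0.00176), fell in Ago2 KO against WT (-2.94 ± 0.32, adjusted p = 6.34e-05), and its interaction passed (-2.94 ± 0.46, adjusted p = 0.0102). Of 14 naïve pluripotency genes tested, Klf4 also passed in CLIPΔ against WT and was lower (-0.57 ± 0.11, adjusted p = 0.0183), and none passed in Ago2 KO/CLIPΔ against Ago2 KO. In each comparison of the Ago2 deletion, 2 of the 14 were higher and 6 lower, or 5 and 2 after median-ratio scaling. Of all genes, 14.0% were higher and 42.4% lower in Ago2 KO against WT, and 12.8% and 42.1% in Ago2 KO/CLIPΔ against CLIPΔ. Pou5f1, which encodes Oct4, was among the naïve genes higher in both comparisons (0.22 ± 0.09, adjusted p = 0.0467, and 0.30 ± 0.09, adjusted p = 0.0113). Sox2 had no row in the table, and its level is not given here.

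Of the other streak genes, 6 were tested. Gsc, a homeobox gene of the organizer and a Nodal target, rose in CLIPΔ against WT (1.64 ± 0.23, adjusted p = 0.00277) and was lower in Ago2 KO/CLIPΔ than in CLIPΔ (-1.31 ± 0.20, adjusted p = 0.000364), while Eomes was higher in the latter comparison (0.63 ± 0.23, adjusted p = 0.0345). Evx1, a posterior streak gene, was 0.29 times as high in libraries 3 and 4 as in 1 and 2 in both Ago2-null genotypes, the opposite of Lefty1. Of 10 endoderm genes tested, Col4a1 was lower in CLIPΔ than in WT (-1.06 ± 0.16, adjusted p = 0.00376), and none passed in Ago2 KO/CLIPΔ against Ago2 KO. In Ago2 KO against WT, where 14.0% of all genes were higher and 42.4% lower, 4 were higher and 5 lower. These were led by Cited1 (1.13 ± 0.35, adjusted p = 0.0157) and Foxq1 (-1.18 ± 0.41, adjusted p = 0.0275), and after median-ratio scaling 4 were higher and 0 lower. Of 9 trophectoderm genes tested, Tfap2c was higher in CLIPΔ than in WT (0.93 ± 0.15, adjusted p = 0.00598) and lower in Ago2 KO (-1.20 ± 0.13, adjusted p = 5.29e-05), and Gata2 was higher in Ago2 KO (1.55 ± 0.23, adjusted p = 0.000267). Against Ago2 KO, 3 of these 9 were lower in Ago2 KO/CLIPΔ, where 0.602% of all genes were, and 2 passed after scaling. Krt18 (-1.14 ± 0.16, adjusted p = 0.00762) and Esx1 (-0.97 ± 0.18, adjusted p = 0.0333) were lowest. Nes, a neuroectoderm gene that encodes the filament protein nestin, was lower in Ago2 KO than in WT (-1.30 ± 0.13, adjusted p = 4.39e-05). Fibroblast and feeder genes summed to between 3.30 and 6.87 TPM in every library, and Col3a1, Dcn, Lum, and Postn had no row.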
